A study of Medicago truncatula with 18 samples.

Results

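*MtLHY* (Medtr7g118330), *MtELF3a* (Medtr3g103970) and *MtLUXb* (Medtr7g089010) are circadian clock genes of the legume *Medicago truncatula*, and their transcripts were followed through the morning in leaves of plants moved from short days (SD) to long days (LD) and of plants kept in SD. They were chosen by gene identifier as a morning gene set against components of the evening complex, 3 of the 50444 genes in the deposited tables. All 3 passed the filter on low counts and were measured in all 18 libraries.

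In *Arabidopsis thaliana*, LHY is a MYB-like transcription factor that accumulates around dawn and represses genes expressed later in the day. ELF3 and LUX, together with ELF4, form the evening complex, a night-time repressor in which LUX binds DNA and ELF3 acts as the scaffold. Genes held down by that complex include pseudo-response regulators and *GI*, and LHY represses several evening genes in turn. The roles given here are those of the *Arabidopsis* proteins, and the *Medicago* genes carry their names by similarity.

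The plants were of cv Jester, vernalised for 25 days at 4 °C and grown at 22 °C. The light lasted 16 h of each day in LD and 8 h in SD, and all plants spent their first 10 days in SD. In experiment 1, leaves were taken at 13 days of age at ZT0 (dawn) and ZT2 (2 h later), from plants with 3 days in LD and from plants kept in SD. In experiment 2, leaves were taken at ZT4 at 15 days of age, from plants with 5 days in LD and from plants kept in SD. The series' design text gives ZT4 in place of ZT2 for experiment 1, and the timepoint, age and experiment in each library's own labels were used here. These 6 groups had 3 replicate libraries each, and each library held RNA from 2 pooled first trifoliate leaves of different plants. Experiment 1 used the ScriptSeq kit and experiment 2 the TruSeq Stranded mRNA kit, so that time of day, age, days in LD and kit cannot be told apart when ZT4 is set against the earlier timepoints, while LD and SD at any 1 timepoint came from the same experiment.

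Library totals were 18009808 to 19560647 estimated counts in experiment 1 and 20690658 to 23201592 in experiment 2. The 7 leaf marker genes (light-harvesting proteins, rubisco activases and a carbonic anhydrase) were detected in every group, with summed abundances per library of 12296 to 17224 TPM in LD and 7938 to 9676 TPM in SD. Most of each sum came from the carbonic anhydrase, with group means of 7727 to 15330 TPM. At adjusted p under 0.05, 7, 5 and 6 of the 7 marker genes were higher in LD at ZT0, ZT2 and ZT4. Among all genes tested, 15.5%, 10.3% and 12.4% were called higher in LD at these timepoints. Over all genes, 2 libraries stood furthest apart from their replicates. The chi-square per gene was 41.1 and 52.8 for the pairs with LD ZT0 replicate 3 (13.1 for the remaining pair) and 77.4 and 68.8 for the pairs with SD ZT0 replicate 2 (6.23 for the remaining pair). SD ZT2 replicate 2 stood apart by less, at 35.9 and 19 (10.4 for the remaining pair), and LD ZT4 replicates 1 and 3 differed at 27. Without LD ZT0 replicate 3, the log2 fold changes of LD over SD at ZT0 were −1.58 for *MtLHY*, 3.65 for *MtELF3a* and −1.63 for *MtLUXb*, and without SD ZT0 replicate 2 they were −1.84, 3.63 and −1.55, and each was still called. A gene annotated as root border cell-specific, Medtr7g085670, was also present, at group means between 34.4 and 54.4 TPM. The part of these differences in the clock gene results was not tested. In whole leaves, a smaller number of expressing cells and less RNA per cell cannot be told apart.

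The 3 genes occupied very different ranges of abundance. *MtLHY* was among the most abundant transcripts, with group means between 58.9 and 957 TPM, and in SD at ZT0 only 0.416% of the 29107 genes with a TPM above 0 were more abundant. *MtLUXb* had group means between 4.44 and 19.8 TPM. *MtELF3a* had group means between 0.310 and 8.38 TPM, and in SD at ZT2 its rounded counts were only 14 to 19 per library. The highest group mean was 16.25-fold the lowest for *MtLHY*, 27.1-fold for *MtELF3a* and 4.47-fold for *MtLUXb*. TPM is scaled for transcript length, so these levels can be set beside each other.

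**Figure D1:**
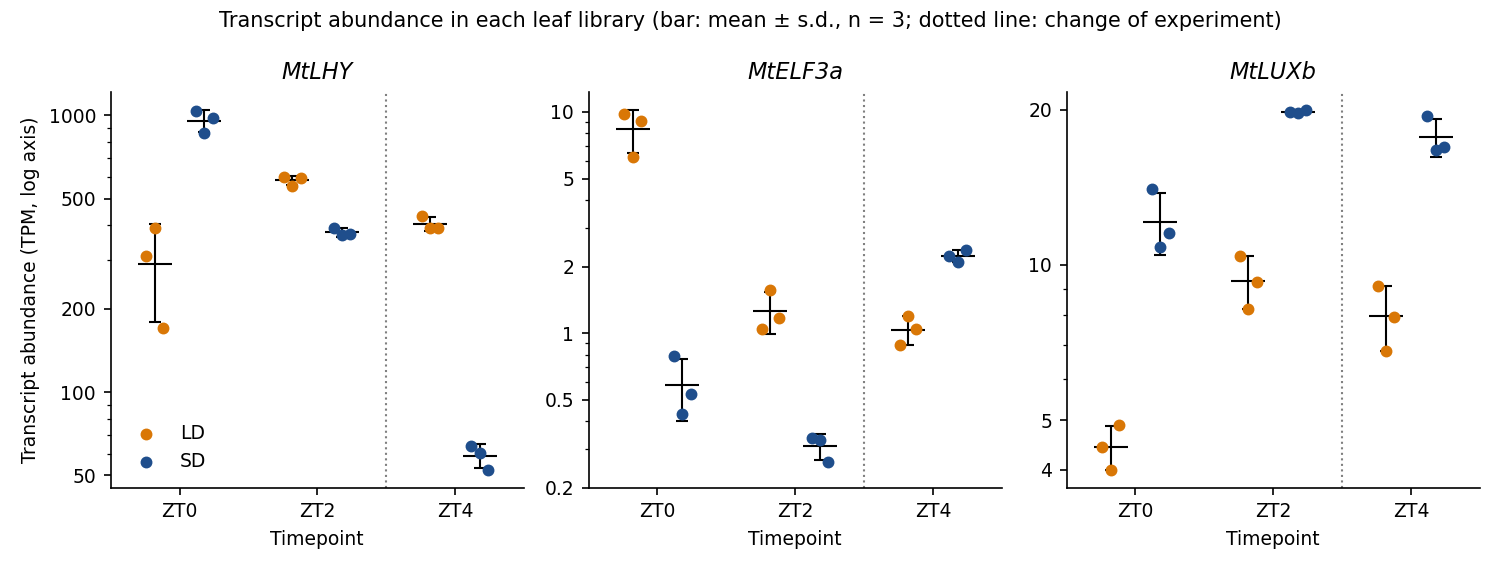
Transcript abundance (TPM, log axis) of *MtLHY*, *MtELF3a* and *MtLUXb* at ZT0, ZT2 and ZT4, with each point a library (LD orange, SD blue) and bars the mean ± standard deviation of 3. The LD and SD points of a gene do not overlap at any timepoint, and *MtLHY* and *MtELF3a* change sides between ZT0 and ZT4 whereas *MtLUXb* stays lower in LD.

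All 9 comparisons of LD with SD, 3 genes at 3 timepoints, passed the adjusted threshold of 0.05, and in all 9 the LD and SD libraries did not overlap in normalised count. The genes called over all 31363 tested made up 29.6% at ZT0, 20.6% at ZT2 and 29.3% at ZT4, so a call in LD against SD at any 1 timepoint is common in these leaves. *MtLHY* was lower in LD at ZT0 and higher at ZT2 and ZT4, a sequence of calls found in 0.481% of genes tested. *MtELF3a* was higher in LD at ZT0 and ZT2 and lower at ZT4, as were 0.730% of genes, and *MtLUXb* was lower in LD at all 3 timepoints, as were 1.87%.

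*MtLHY*, the morning gene, had 310.2, 392.3 and 170.04 TPM in LD at ZT0, against 1035, 861 and 974 TPM in SD. Every LD leaf library was below every SD library at dawn, and LD replicate 3 was the lowest. The mean was 290.8 ± 112 TPM in LD and 957 ± 88 TPM in SD (± standard deviation, n = 3 each), and LD was 3.56-fold lower (log2 fold change −1.83, SE 0.17, adjusted p = 5.50e-08 by the quasi-likelihood test of edgeR). Groups without overlap and with LD lower made up 18.9% of genes at ZT0.

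At ZT2, *MtLHY* had 597, 555 and 593 TPM in LD, against 393, 368 and 371 TPM in SD. The order of the photoperiods was the opposite of that at dawn, with LD 1.49-fold higher (log2 fold change 0.57, SE 0.17, adjusted p = 0.0125). At ZT4, its abundance was 433, 392 and 390.4 TPM in LD, against 63.9, 60.4 and 52.4 TPM in SD. This was the widest gap between photoperiods for this gene, 7.15-fold higher in LD (log2 fold change 2.84, SE 0.18, adjusted p = 2.10e-10), and 1.19% of the 19758 genes with a mean normalised count above 10 differed by more at ZT4. Groups without overlap and with LD higher made up 17.5% of genes at ZT2 and at ZT4.

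*MtELF3a*, named after the scaffold of the evening complex, had 9.80, 6.26 and 9.07 TPM in LD at ZT0, against 0.785, 0.433 and 0.530 TPM in SD. The lowest LD library was far above the highest SD library, and LD was 13.4-fold higher (log2 fold change 3.75, SE 0.20, adjusted p = 3.08e-11). Only 0.648% of genes with a mean normalised count above 10 differed by more at ZT0. Groups without overlap and with LD higher made up 19.3% of genes at that timepoint.

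At ZT2, *MtELF3a* had 1.04, 1.57 and 1.17 TPM in LD, against 0.338, 0.329 and 0.262 TPM in SD. LD was still the higher photoperiod, 3.91-fold (log2 fold change 1.97, SE 0.26, adjusted p = 5.54e-06), although both groups were at or below 1.57 TPM. At ZT4, its abundance was 0.881, 1.19 and 1.04 TPM in LD, against 2.24, 2.09 and 2.39 TPM in SD. Here LD was 2.06-fold lower (log2 fold change −1.04, SE 0.19, adjusted p = 2.45e-04), the reverse of the 2 earlier timepoints. On the log2(TPM + 1) scale in limma, which understates changes of low genes, *MtELF3a* had log2 differences of 2.55, 0.78 and −0.67 for ZT0, ZT2 and ZT4, and all 3 kept their call. Groups without overlap and with LD lower made up 24.3% of genes at ZT4.

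*MtLUXb*, named after the DNA-binding member of the evening complex, had 4.44, 4.00 and 4.88 TPM in LD at ZT0, against 14.0, 10.8 and 11.5 TPM in SD. LD was 2.89-fold lower (log2 fold change −1.53, SE 0.12, adjusted p = 5.65e-09). At ZT2, the values were 10.4, 8.21 and 9.28 TPM in LD, against 19.8, 19.8 and 19.99 TPM in SD. The SD libraries were almost equal, and LD was 2.19-fold lower (log2 fold change −1.13, SE 0.11, adjusted p = 9.41e-08). At ZT4, the values were 9.12, 6.81 and 7.94 TPM in LD, against 19.5, 16.7 and 17.0 TPM in SD. LD was 2.13-fold lower (log2 fold change −1.09, SE 0.11, adjusted p = 1.45e-07), close to the fold at ZT2. Groups without overlap and with LD lower made up 16.7% of genes at ZT2.

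Whether the photoperiod difference itself moved between timepoints was tested with the interaction of photoperiod and timepoint, which 30.4% of genes passed. *MtLHY* (adjusted p = 4.04e-11) and *MtELF3a* (adjusted p = 1.84e-10) passed, and *MtLUXb* did not (adjusted p = 0.0809). A shift shared by LD and SD between the 2 experiments cancels in this test. The days in LD, 3 at ZT0 and ZT2 and 5 at ZT4, differed for LD plants only and do not cancel. For *MtLHY*, the log2 difference of LD over SD moved up by 2.41 (SE 0.24) between ZT0 and ZT2 and by 2.27 (SE 0.24) between ZT2 and ZT4, with adjusted p of 1.92e-07 and 4.31e-07. For *MtELF3a*, the change was −1.78 (SE 0.36) between ZT0 and ZT2 and −3.01 (SE 0.32) between ZT2 and ZT4, with adjusted p of 9.11e-04 and 5.83e-07. These 2 genes therefore changed sign in opposite directions, *MtLHY* between ZT0 and ZT2 and *MtELF3a* between ZT2 and ZT4. Changes of the photoperiod difference were called in 18.9% of genes between ZT0 and ZT2 and in 15.3% between ZT2 and ZT4. Of these changes, that between ZT0 and ZT2 lies within 1 experiment and kit.

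For *MtLUXb*, the photoperiod difference changed by 0.40 between ZT0 and ZT2 (95% interval 0.06 to 0.74, adjusted p = 0.0991), by 0.04 between ZT2 and ZT4 (−0.28 to 0.36, adjusted p = 0.972) and by 0.44 between ZT0 and ZT4 (0.10 to 0.78, adjusted p = 0.0631). Changes between ZT0 and ZT4 were called in 25.4% of genes. The interaction of *MtLUXb*, which the study called in its own likelihood ratio test, lay close to the threshold here and depended on the setting. Its adjusted p was 0.0489 with DESeq2 and 0.0375 with DESeq2's size factors in edgeR. It was 0.0373 without LD ZT0 replicate 3, 0.0469 without SD ZT0 replicate 3 and 0.0377 without LD ZT4 replicate 2.

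**Figure D2:**
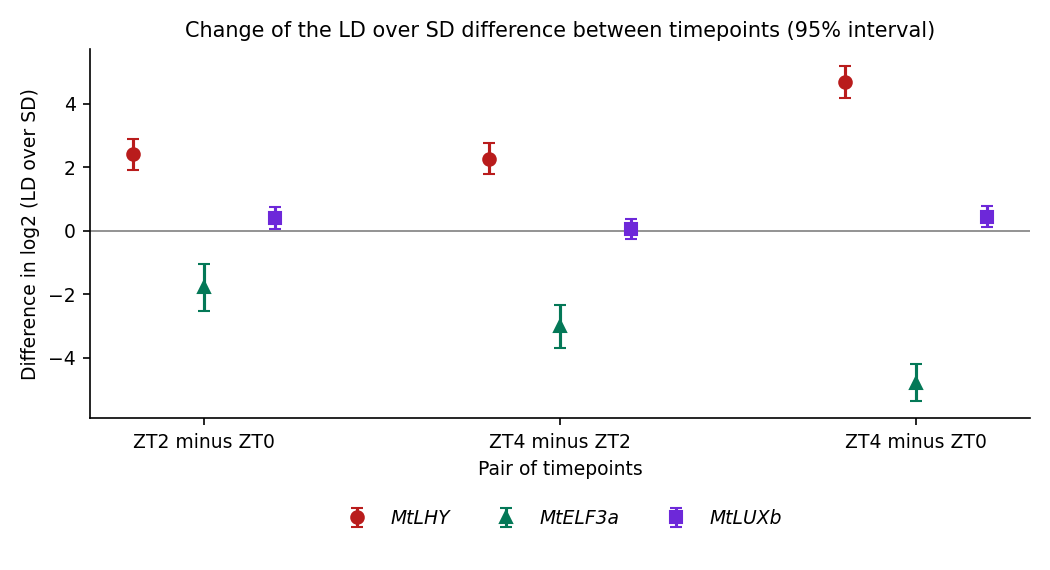
Change of the log2 difference of LD over SD between pairs of timepoints for *MtLHY* (circles), *MtELF3a* (triangles) and *MtLUXb* (squares), with 95% intervals. Between ZT0 and ZT4 it rose by 4.67 for *MtLHY*, fell by 4.79 for *MtELF3a*, and was 0.44 for *MtLUXb*, which did not pass the test.

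Within a photoperiod, any step to ZT4 also crosses from experiment 1 to experiment 2, with another age and kit. Time of day cannot be told apart from these there, and only ZT0 to ZT2 lies within 1 experiment. With that limit, *MtLHY* varied more between the timepoints in SD than in LD. In SD, it was 2.46-fold lower at ZT2 than at ZT0 (log2 fold change −1.30, adjusted p = 3.05e-06) and 6.75-fold lower at ZT4 than at ZT2 (log2 fold change −2.76, adjusted p = 1.41e-10). In LD, it was 2.16-fold higher at ZT2 than at ZT0 (log2 fold change 1.11, adjusted p = 2.03e-05) and 1.404-fold lower at ZT4 than at ZT2 (log2 fold change −0.49, adjusted p = 0.0274). The group means thus spanned 16.25-fold in SD, where ZT0 was the highest, and 2.00-fold in LD, where ZT2 was the highest.

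The LD difference of *MtLHY* between ZT2 and ZT4 (95% interval −0.83 to −0.14) had a call that depended on single libraries. It lost its call without LD ZT2 replicate 2 (−0.50, adjusted p = 0.0533), LD ZT2 replicate 3 (−0.46, 0.0774), LD ZT4 replicate 2 (−0.47, 0.0750), LD ZT4 replicate 3 (−0.49, 0.0694), SD ZT4 replicate 2 (−0.44, 0.0641) and SD ZT4 replicate 3 (−0.44, 0.0529). In LD, *MtLHY* was 1.54-fold higher at ZT4 than at ZT0 (log2 fold change 0.62, adjusted p = 0.00585), and without LD ZT0 replicate 3, its lowest library, the log2 fold change was 0.37 (adjusted p = 0.00921). limma on log2(TPM + 1) gave 0.56 with an adjusted p of 0.0533, so that the call was lost there. Over all genes, 32.3% were called between ZT4 and ZT0 in LD.

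*MtELF3a* followed another course in each photoperiod. In LD, it was 6.21-fold lower at ZT2 than at ZT0 (log2 fold change −2.63, adjusted p = 4.96e-10), and ZT4 did not differ from ZT2 beyond the error (log2 fold change −0.25, 95% interval −0.68 to 0.18, adjusted p = 0.407). In SD, it was 1.81-fold lower at ZT2 than at ZT0 (log2 fold change −0.85, adjusted p = 0.0281) and 6.76-fold higher at ZT4 than at ZT2 (log2 fold change 2.76, adjusted p = 1.26e-08). Its highest group mean was therefore at ZT0 in LD, from experiment 1, and at ZT4 in SD, from experiment 2. The small SD difference between ZT0 and ZT2 rested on 14 to 43 counts per library, and it lost its call without SD ZT0 replicate 1 (−0.62, adjusted p = 0.164), SD ZT2 replicate 1 (−0.89, 0.0554) or SD ZT2 replicate 3 (−0.74, 0.101).

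*MtLUXb* had its highest mean at ZT2 and its lowest at ZT0 in both photoperiods. It was higher at ZT2 than at ZT0, 2.22-fold in LD (log2 fold change 1.15, adjusted p = 2.18e-07) and 1.69-fold in SD (log2 fold change 0.76, adjusted p = 9.92e-06). From ZT2 to ZT4 the log2 fold change was −0.25 in LD (adjusted p = 0.102) and −0.30 in SD (adjusted p = 0.0343). The SD change lost its call without SD ZT2 replicate 2 (−0.26, adjusted p = 0.111), SD ZT2 replicate 3 (−0.30, 0.0663), SD ZT4 replicate 2 (−0.27, 0.103) or SD ZT4 replicate 3 (−0.28, 0.101). Over all genes, differences between ZT2 and ZT0 were called in 25.0% in LD and 35.7% in SD, and those between ZT4 and ZT2 in 22.3% in LD and 32.8% in SD.

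The order of the 6 groups differed between the genes. For *MtLHY*, SD at ZT0 (957 TPM) stood first and LD at ZT2 (581 TPM) second. LD at ZT4 (405 TPM), SD at ZT2 (378 TPM) and LD at ZT0 (290.8 TPM) followed, and neighbours among these 3 overlapped. SD at ZT4 (58.9 TPM) was lowest and overlapped with no other group.

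For *MtELF3a*, LD at ZT0 (8.38 TPM) stood first and SD at ZT4 (2.24 TPM) second. LD at ZT2 (1.26 TPM) and LD at ZT4 (1.04 TPM) overlapped, and SD at ZT0 (0.583 TPM) and SD at ZT2 (0.310 TPM) were lowest. For *MtLUXb*, the 3 SD groups came before the 3 LD groups, in the order ZT2 (19.8 TPM), ZT4 (17.7 TPM) and ZT0 (12.1 TPM) in SD and ZT2 (9.30 TPM), ZT4 (7.96 TPM) and ZT0 (4.44 TPM) in LD, where only ZT2 and ZT4 in LD overlapped.

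Setting the morning gene against the evening complex genes within a library removes any scaling between libraries. With 3 libraries against 3, the 2-sided exact permutation test cannot give a p under 0.1, so groups without overlap are reported as such. The log2 ratio of *MtLHY* to *MtELF3a* in TPM was 5.06 ± 0.87 in LD and 10.72 ± 0.31 in SD at ZT0 (± standard deviation, n = 3 each). At ZT2 it was 8.87 ± 0.36 in LD and 10.26 ± 0.18 in SD. At ZT4 it was 8.62 ± 0.30 in LD and 4.71 ± 0.22 in SD. LD and SD did not overlap at any of these timepoints, with LD lower at ZT0 and ZT2 and higher at ZT4. With 1 TPM added to both genes the ZT2 difference was −0.16, and the libraries overlapped, at 7.76 to 8.19 in LD and 8.12 to 8.21 in SD.

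The log2 ratio of *MtLHY* to *MtLUXb* was 5.95 ± 0.76 in LD and 6.31 ± 0.10 in SD at ZT0, where the libraries overlapped (exact permutation p = 0.7). At that timepoint both genes were lower in LD, with log2 fold changes of −1.83 for *MtLHY* and −1.53 for *MtLUXb*. At ZT2 the ratio was 5.97 ± 0.12 in LD and 4.25 ± 0.05 in SD, and at ZT4 it was 5.68 ± 0.15 in LD and 1.73 ± 0.11 in SD, with no overlap at either. In LD the geometric means of the ratio lay between 51.2-fold and 62.8-fold, although single LD libraries at ZT0 ranged from 34.8-fold to 98.0-fold. In SD *MtLHY* was 79.1-fold as abundant as *MtLUXb* at ZT0, 19.0-fold at ZT2 and 3.32-fold at ZT4. Changes of the ratio between timepoints were not tested.

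The 2 evening complex genes did not keep a constant ratio to each other. The log2 ratio of *MtELF3a* to *MtLUXb* was 0.89 ± 0.25 in LD and −4.42 ± 0.24 in SD at ZT0, and −2.90 ± 0.47 in LD and −6.01 ± 0.21 in SD at ZT2, without overlap. At ZT4 it was −2.94 ± 0.43 in LD and −2.98 ± 0.15 in SD, and the libraries overlapped (exact permutation p = 0.9). LD at ZT0 was the only group in which *MtELF3a* was more abundant than *MtLUXb*, 1.86-fold, and this held in each of its 3 libraries.

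**Figure D3:**
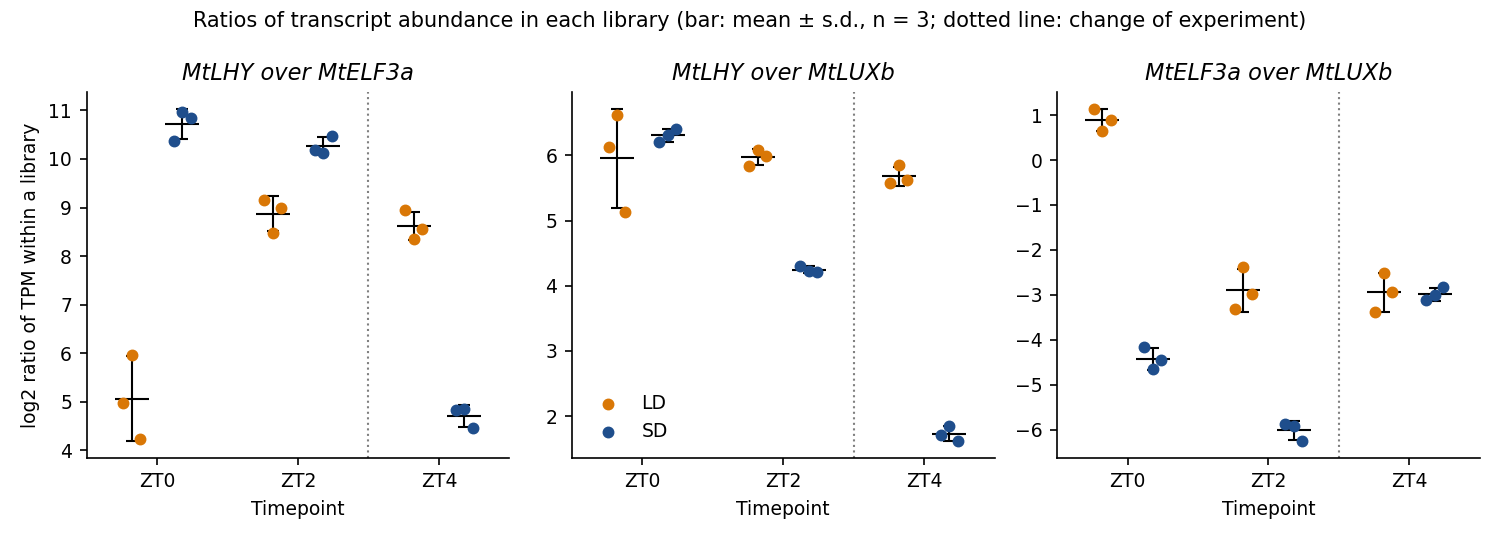
Log2 ratio of TPM within each library for the 3 pairs of genes at ZT0, ZT2 and ZT4 (LD orange, SD blue; bars are the mean ± standard deviation of 3 libraries). LD and SD overlap only for *MtLHY* over *MtLUXb* at ZT0 and for *MtELF3a* over *MtLUXb* at ZT4.

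From the study's table of flowering candidates, 18 other genes were taken as a list: 8 of the evening complex, 7 pseudo-response regulators, and *MtGI*, *MtFKF1* and *MtZTL*, which are grouped with the clock here. Of these, 17 had counts, with ELF3-like Medtr8g015470 listed at 0 in every library. In LD against SD, 6 rose and 7 fell at ZT0, 3 rose and 9 fell at ZT2, and none rose and 14 fell at ZT4, out of 17 each. The median log2 difference was 0.05, −0.54 and −1.38, beside 0, 0 and −0.04 over all genes. *MtLHY* was thus the one gene of these 20 with counts that was called higher in LD at ZT4. This holds for the listed groups only. Other candidates in the study's table, among them *MtCDF4* and *MtCDF5*, were also higher in LD at ZT4. Over all genes tested, 15.5% were called higher and 14.2% lower in LD at ZT0, 10.3% higher and 10.3% lower at ZT2, and 12.4% higher and 16.9% lower at ZT4.

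Among the 7 other evening complex genes with counts, 3 rose and 2 fell in LD at ZT0, 1 rose and 2 fell at ZT2, and 5 fell at ZT4. *MtELF4*, whose *Arabidopsis* namesake is the third partner of the complex, had 15.6 ± 2.29 TPM in LD and 1.19 ± 0.189 TPM in SD at ZT0 and was 0.822 ± 0.604 TPM in LD and 13.8 ± 0.997 TPM in SD at ZT4. Its log2 fold changes were 3.58, 1.79 and −4.02 at ZT0, ZT2 and ZT4 (adjusted p = 1.39e-09, 2.39e-05 and 3.30e-10), with the same signs as those of *MtELF3a*. The lower group of each held few counts per library, 7 to 9 in SD at ZT0, 10 to 11 in SD at ZT2 and 3 to 12 in LD at ZT4. ELF3-like Medtr8g015480 rose by 1.54 at ZT0 and fell by 0.90 at ZT4 on the log2 scale (adjusted p = 1.02e-05 and 0.00215), with −0.37 at ZT2 (0.326).

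The close relatives *MtELF3b* and *MtLUXa* had other values. *MtELF3b* was not called at any timepoint, with log2 fold changes of 0.05, −0.11 and −0.14 (adjusted p of 0.389 or more) and 3.57 to 5.15 TPM in every group mean. *MtLUXa* had 22, 15 and 25 counts in LD at ZT0, against 0, 3 and 1 counts in SD (adjusted p = 9.21e-06), so that at dawn it was higher in LD while *MtLUXb* was lower. At ZT2 and ZT4 its log2 fold changes were 0.36 and −0.66 and were not called (adjusted p = 0.529 and 0.138).

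The ELF4-like genes included 2 with the signs of *MtLUXb*. Medtr8g020200 fell by 0.81, 1.22 and 0.98 on the log2 scale in LD at ZT0, ZT2 and ZT4 (highest adjusted p 5.50e-04), and Medtr2g041310 fell by 1.26, 0.54 and 0.67 (highest adjusted p 0.0283). ELF4-like Medtr4g125590 fell by 1.38 at ZT4 (adjusted p = 0.00279), and its log2 fold changes of 0.25 at ZT0 and −0.32 at ZT2 were not called.

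Among the 7 pseudo-response regulators, which in *Arabidopsis* repress *LHY* in turn from morning to evening, 2 rose and 4 fell in LD at ZT0, 2 rose and 5 fell at ZT2, and all 7 fell at ZT4. The 2 that rose at ZT0 and ZT2 were *MtTOC1a* and *MtTOC1b*, both of which were lower in LD at ZT4, a sequence of signs shared with *MtELF3a*. *MtTOC1a* had 3.20 ± 0.415 TPM in LD and 0.139 ± 0.0265 TPM in SD at ZT0 (log2 fold change 4.38) and was also the gene with the largest rise of the list at ZT2 (2.01). *MtPRR59c* fell by 6.11 and *MtPRR37a* by 4.31 on the log2 scale at ZT0, when *MtLHY* was lower in LD. At ZT0, the fold of *MtPRR59c* rested on 3 to 11 counts per library in LD, and that of *MtTOC1a* on 5 to 7 in SD. *MtPRR37a* fell by 3.38 and *MtPRR59a* by 2.27 at ZT2, when *MtLHY* was higher in LD. A link between these genes and *MtLHY* was not tested.

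Of *MtGI*, *MtFKF1* and *MtZTL*, 1 rose and 1 fell in LD at ZT0, and 2 fell at ZT2 and at ZT4. *MtFKF1*, named after an *Arabidopsis* blue-light receptor of the photoperiod pathway, fell by 4.99 on the log2 scale at ZT4, with 0.241 ± 0.00285 TPM in LD and 8.08 ± 1.36 TPM in SD, and *MtPRR59a* fell by 4.36 there. No gene of the list was called higher in LD at ZT4, and the highest value was 0.03 for *MtZTL* (adjusted p = 0.856). All 7 pseudo-response regulators, 4 of the 7 evening complex genes and 2 of these 3 genes passed the interaction test. That was 13 of 17 in all, beside 30.4% of all genes tested.

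**Figure D4:**
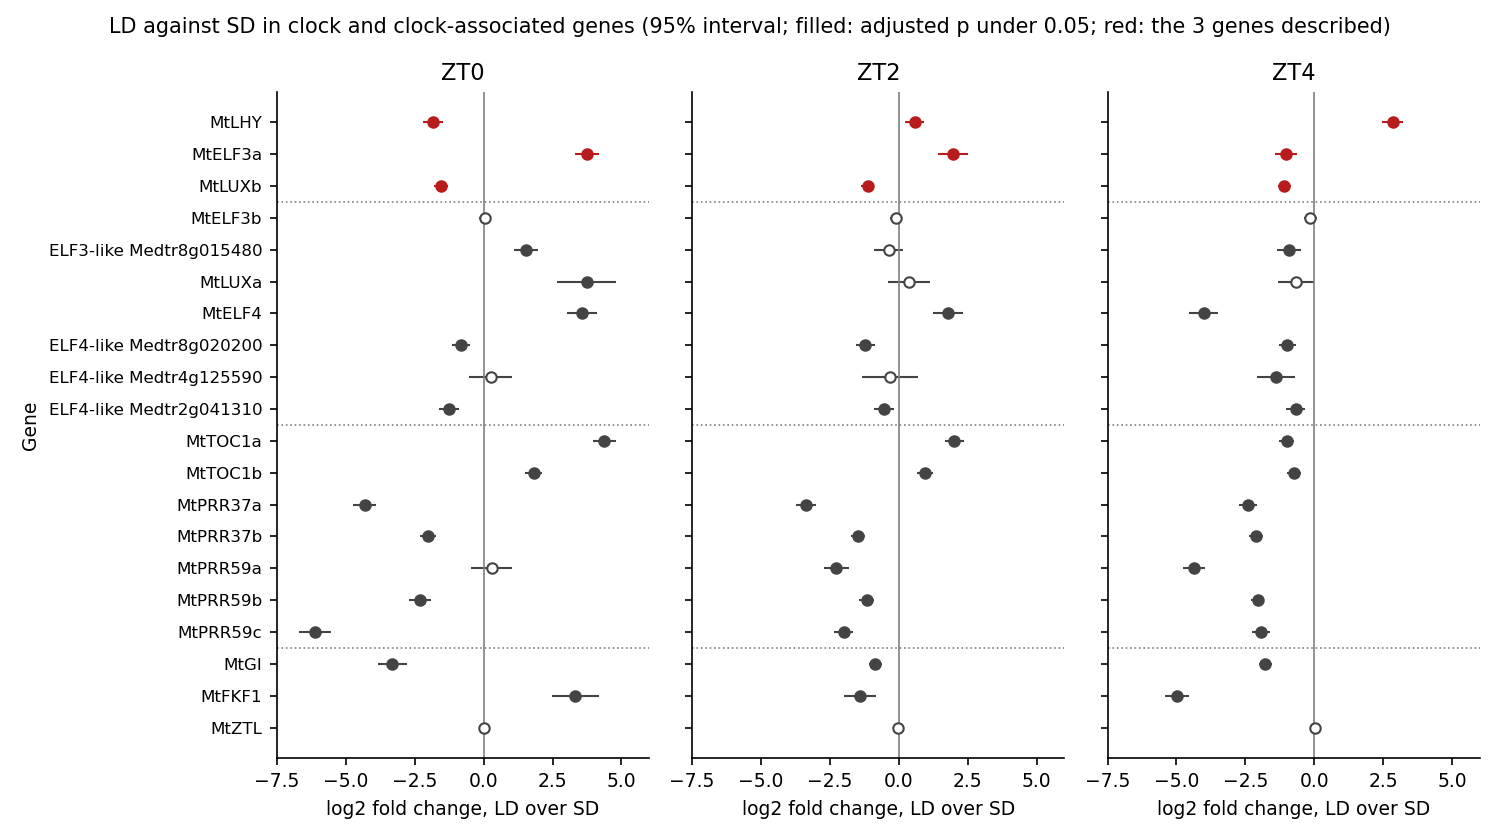
Log2 fold change of LD over SD with 95% intervals for the 3 genes (red) and the 17 other listed genes with counts (grey) at ZT0, ZT2 and ZT4, with filled symbols for an adjusted p under 0.05. At ZT4, *MtLHY* at 2.84 is the one gene of those shown that was called higher in LD. *MtELF3a* and *MtLUXb* are among the genes lower in LD.

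The reference genes that the study used for RT-qPCR had smaller log2 fold changes than the 3 clock genes at each timepoint. *TUBULIN BETA-1* (Medtr7g089120) had log2 fold changes of 0.66, 0.15 and 0.28 in LD against SD, of which the first was called (adjusted p = 5.88e-04). *PP2A* (Medtr6g084690) had 0.11, −0.02 and −0.22, of which the last was called (adjusted p = 0.0414).

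Patterns most like each gene were found by the root mean square difference between log2(normalised count + 1) profiles over all 18 libraries, each centred on its mean, among 19758 genes with a mean normalised count above 10. All profiles share the same libraries, and the likeness is a description. A profile that did not move at all would differ from *MtLHY* by 1.29, from *MtELF3a* by 1.46 and from *MtLUXb* by 0.76. The 5 genes nearest to *MtLHY* were Medtr4g072320, Medtr4g006730, Medtr7g095680, Medtr3g087950 and Medtr5g045370 (annotated as a ninja-family protein), at 0.49 to 0.55. Its mirror image was matched more closely, at 0.40 to 0.43, by Medtr6g008410 (a CRS1 splicing facilitator), Medtr8g042000 (a cytochrome P450) and Medtr7g029350 (a methyltransferase domain protein).

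The 5 genes nearest to *MtELF3a* were Medtr2g034140 (a ferredoxin-type iron-sulfur protein, 0.41), Medtr3g117320 (a salt tolerance-like protein, 0.52), Medtr7g093490, Medtr4g082950 (a starch phosphorylase family protein) and Medtr1g090867 (a tyrosine phosphatase, 0.69). Its mirror image was nearest to Medtr3g116430, Medtr4g129770 and Medtr3g074070, at 0.55 to 0.64. For *MtLUXb*, the nearest were Medtr6g024235, Medtr4g071590, Medtr6g016275, Medtr4g471590 and Medtr7g006540, at 0.26 to 0.30, and those nearest to its mirror image were Medtr3g086340 (an oxysterol-binding protein relative, 0.21), Medtr3g463530 (an actin bundling protein) and Medtr1g031620 (0.30). Medtr4g071590 and Medtr4g471590 had nearly equal mean normalised counts, 236.8 and 237.2, and whether they share reads was not tested.

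**Figure D5:**
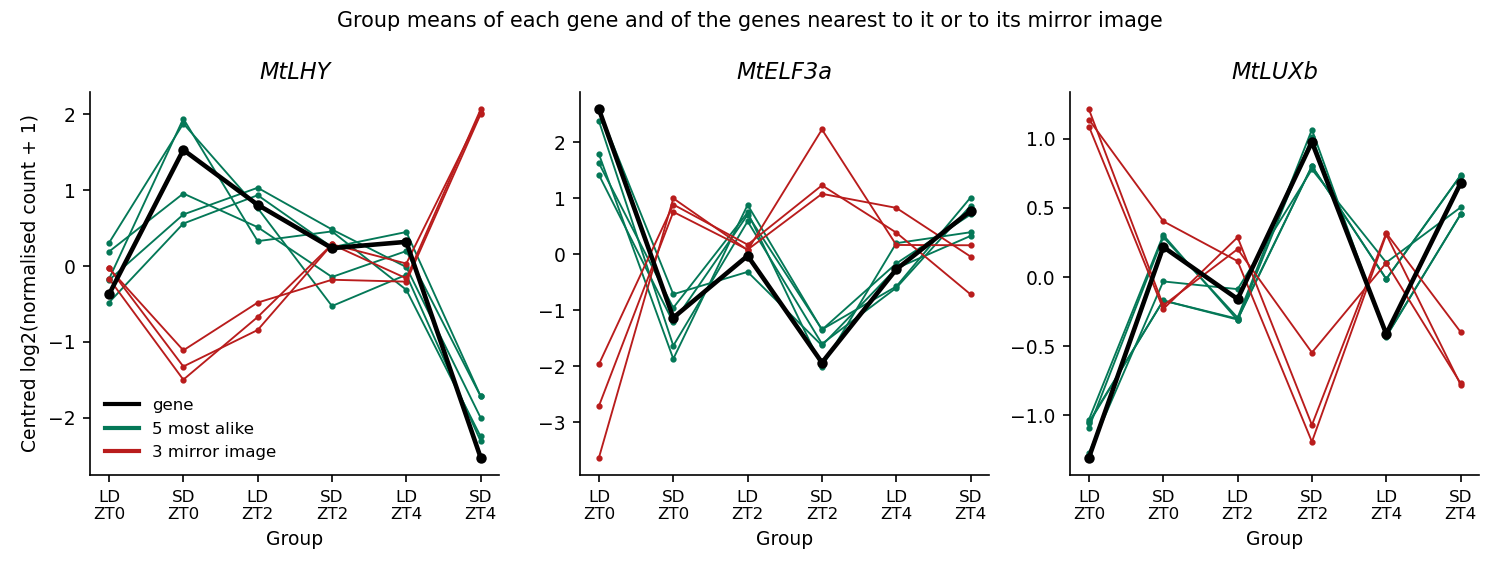
Group means of centred log2(normalised count + 1) for each gene (black), the 5 genes most alike (green) and the 3 nearest to its mirror image (red), over the 6 groups; lines only join the points of 1 gene. Green lines run near the black one and red lines lie opposite to it at its extremes, while in groups where the black line is near 0 single lines depart from this. The nearest mirror gene of *MtLUXb* differed by 0.21.

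Of the 5 nearest genes, 0 for *MtLHY*, 2 for *MtELF3a* and 3 for *MtLUXb* were also among the 5 nearest in the 12 libraries of experiment 1 alone, and 3, 1 and 5 were with log2(TPM + 1) in place of normalised counts. Of the 3 mirror-image genes, 0, 2 and 1 were shared with experiment 1 alone and 0, 1 and 1 with log2(TPM + 1), for *MtLHY*, *MtELF3a* and *MtLUXb* in that order. The named genes, those of *MtLHY* most of all, thus depended on the libraries and scale. None of the other listed genes was among these nearest genes. For *MtELF3a*, the nearest clock genes were ELF3-like Medtr8g015480 in place 88, *MtTOC1b* in place 171, *MtTOC1a* in place 229 and *MtELF4* in place 287 of 19757. For *MtLUXb*, they were ELF4-like Medtr2g041310 in place 483 and Medtr8g020200 in place 694. *MtLUXb* stood in place 18834 for likeness to *MtELF3a* and in place 114 for likeness to its mirror image (1.03). The mirror image of *MtLHY* had *MtTOC1b* in place 589 and *MtELF3a* in place 12985.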

How the data were processed

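RNA-Seq was carried out on *M. truncatula* leaves in 6 groups of 3 libraries, grouped by the photoperiod and timepoint in the labels. The authors trimmed reads with BBDuk, quantified them with Salmon 0.8.2 against the Mt4.0v2 transcripts and summed transcripts per gene with tximport. The deposited estimated counts are unscaled, and the deposited TPM values, scaled for transcript length and library size, come from the same quantification. All 54 estimated counts of the 3 genes were whole numbers (tolerance 1e-6); others were rounded.

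Rows with a summed count of 1 or less were dropped. TMM factors were applied, and all 18 libraries were fitted with edgeR 4.0.16 in R 4.3.3 by its quasi-likelihood test, with Benjamini-Hochberg adjustment at 0.05 over all genes and the contrasts of a family (3 for LD against SD, 1 interaction, 3 changes of the difference, 6 within photoperiods). Each SE is the absolute log2 fold change over the square root of the F statistic of that fit. The 95% intervals follow from these SEs, use no adjustment, and cover the spread between these libraries. Normalised counts are TMM-scaled counts. The steps were tested on simulated data. Alternatives were DESeq2 1.42.0, its size factors in edgeR, a length offset, filterByExpr, all genes with any count, a replicate block, limma 3.58.1 on log2(TPM + 1), 1 timepoint or experiment alone, and each library left out.

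Genes named are the 3 genes, evening complex genes with a mean normalised count above 10, the 2 largest called differences in each direction per timepoint among 18 listed genes, both reference genes, and the 5 nearest and 3 mirror-image genes of each. For groups with 3 or fewer counts in each library, counts are given in place of a fold. Members and lists were chosen with earlier results of these data known. Names and annotations follow the study's tables. None of the identifiers (0 of 50444) was found in the RefSeq table of another assembly, so positions and sequences were not used here. Columns of all samples were mapped.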

Additional observations from a re-analysis of the deposited data

Results flagged for a closer look

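The difference between LD and SD itself differed between timepoints, by the interaction test in edgeR, for *MtLHY* (adjusted p = 4.04e-11) and for *MtELF3a* (adjusted p = 1.84e-10). The log2 fold changes at ZT0, ZT2 and ZT4 were −1.83, 0.57 and 2.84 for *MtLHY* and 3.75, 1.97 and −1.04 for *MtELF3a*.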

How the results depend on the processing

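All 9 calls of LD against SD, and the interactions of *MtLHY* and *MtELF3a*, kept their direction and call under every alternative run. The interaction of *MtLUXb* passed with DESeq2's size factors (adjusted p = 0.0375), DESeq2 (0.0489) and filterByExpr (0.0490), and spanned 0.0373 to 0.232 with single libraries left out and up to 0.462 over all settings. The change of its photoperiod difference from ZT0 to ZT4 was called, at 0.53 with DESeq2's size factors, 0.53 with DESeq2, 0.46 with filterByExpr, 0.54 without LD ZT0 replicate 3, 0.52 without SD ZT0 replicate 3, 0.53 without LD ZT4 replicate 2 and 0.52 without SD ZT4 replicate 1, in a range of 0.36 to 0.54 over libraries left out. From ZT0 to ZT2 that range was 0.31 to 0.50, called without LD ZT0 replicate 3 (0.50). From ZT2 to ZT4 it was −0.03 to 0.14, negative without LD ZT2 replicate 2 (−0.01) and LD ZT4 replicate 1 (−0.03), and −0.05 with limma on log2(TPM + 1).

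limma ended the calls of *MtLHY* in LD from ZT2 to ZT4 (−0.52; −0.51 to −0.44 with libraries left out) and from ZT0 to ZT4 (0.56; 0.37 to 0.91), of *MtELF3a* in SD from ZT0 to ZT2 (−0.27; −0.98 to −0.62) and of *MtLUXb* in SD from ZT2 to ZT4 (−0.16, and −0.24 with a length offset; −0.37 to −0.26). With a pseudocount of 1 TPM, the LD minus SD log2 ratio of *MtLHY* to *MtELF3a* was −4.35, −0.16 (with overlap) and 3.44 at ZT0, ZT2 and ZT4, and that of *MtELF3a* to *MtLUXb* 3.82, 1.80 and 0.40. With libraries left out, the ratio of *MtLHY* to *MtLUXb* at ZT0 spanned −0.68 to 0.06 (0.06 without LD ZT0 replicate 3), and that of *MtELF3a* to *MtLUXb* at ZT4 −0.17 to 0.26 (−0.17 without LD ZT4 replicate 2, −0.03 without SD ZT4 replicate 1). Experiment 1 alone called 5435 genes in its single term, the change from ZT0 to ZT2, which 5915 genes passed in all libraries; the 9548 genes called for the interaction there come from a joint test over 3 timepoints.

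Whether LD and SD libraries of the same replicate number were paired could not be settled. Deviations of same-numbered libraries correlated at −0.209 to 0.154, and 5 of 9 LD libraries correlated best with the SD library of their own number. At ZT2 this held for 3 of 3 LD libraries (0.073 to 0.154), and at ZT0 and at ZT4 for 1 of 3. The replicate block called 9039 genes in the interaction, gave *MtLUXb* an adjusted p of 0.116, and changed no call of the 3 genes. Median log2 differences over all genes moved by less than 0.1 with either other scaling. The causes of these changes were not tested. Depth limits *MtELF3a* most, with 14 to 19 counts per library in SD at ZT2.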
